A study of Ovis aries with 36 samples.

Results

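The comparison described here sets the operated infraspinatus of untreated sheep against the infraspinatus of their other side on the same day. Its members are 6 of the 36 libraries of the series, chosen by their titles: the 3 END libraries and the 3 END-CC libraries of the CONTROL arm, paired by animal (2901, 2902 and 2903). The animals were female Swiss Alpine sheep, 2 years old, and CONTROL animals received no drug. END is the muscle whose tendon had been released for 16 weeks and then reattached to the bone 6 weeks before sampling, and END-CC is the contralateral muscle of the same animal at the same time. PRE and TR, used below for the change over release, are the operated muscle before release and at repair. The N22W and N6W arms, used for comparison, had the same operations with 150 mg of nandrolone decanoate each week, an ester of an anabolic steroid, for the 22 weeks after release or for the 6 weeks after repair. The design text gives 6 animals per arm, of which 3 per arm were analysed here. A further label, the source name, reads the same for all libraries of the series, so groups rest on the titles.

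The infraspinatus is a muscle of the rotator cuff, which holds the head of the humerus in its socket and rotates the shoulder outward. When its tendon is detached the muscle is unloaded and retracts, and loss of fibre mass, fat accumulation and fibrosis are the known course in the clinic and in sheep. Reattachment restores the mechanical link, and how far the muscle recovers is the question such models are used for. The contralateral muscle has had no operation but belongs to an animal that has, so it is a reference of the same age and day and not an untouched muscle. Genes carry Ensembl identifiers that could be matched to no names here, so they are described by their levels. For the same reason the tissue could not be checked against muscle markers. In bulk tissue fewer cells of a type and less RNA per cell cannot be told apart.

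The values are reads per gene divided by 1 size factor per library, called normalised reads below. Whole reads recovered from them summed to 12826093, 16370794 and 24438386 in END and to 21880073, 16313497 and 20721029 in END-CC (animals 2901, 2902 and 2903 in that order), so depth overlapped between the sides. The END libraries held more kinds of transcript. At an equal depth of 12826093 reads, 16492, 16277 and 16521 genes would be expected to have a read in END, against 15408, 15640 and 15247 in END-CC, so every operated muscle lay above every other side. Without the correction for depth the numbers were 16492, 16609 and 17420 against 16059, 15961 and 15844. Summed normalised reads went the other way, with 15982288, 17758274 and 16116725 in END and 20814990, 20025851 and 20928147 in END-CC, again without overlap. An exact test over 3 pairs cannot go below p = 0.25 for a single value, so neither difference was tested.

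After 6 weeks of repair the operated muscle still differed from the other side in nearly as many genes upward as downward. Among called genes the upward differences were larger. Of 16417 genes tested with limma, 1564 were higher in END (9.53% of those tested) and 1620 were lower (9.87%), with the false discovery rate held at 0.05. Those higher had a median log2 difference of 0.99, with quartiles of 0.69 and 1.52. Those lower had one of −0.55, with quartiles of −0.69 and −0.44. The median SE was 0.26 among the higher genes and 0.15 among the lower ones. A higher gene thus typically needed a larger difference to pass, which by itself favours larger called differences upward. Quartiles over all genes tested were −0.26 and 0.50. At least 2-fold differences were reached by 775 of the higher genes and by 100 of the lower ones. At least 8-fold differences were reached by 31 and by 1. In the single animals, 1546 of the 1564 genes were higher in each of the 3, and 1619 of the 1620 were lower in each. Of all genes tested, 55.3% went the same way, up or down, in all 3. The called genes were chosen in these same libraries, which by itself favours such agreement and a lack of overlap. Values of the 3 END libraries lay wholly above those of END-CC in 1393 of the higher genes, and wholly below in 1448 of the lower ones. Among all genes tested, 17.9% lay wholly above and 16.1% wholly below.

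**Figure D1:**
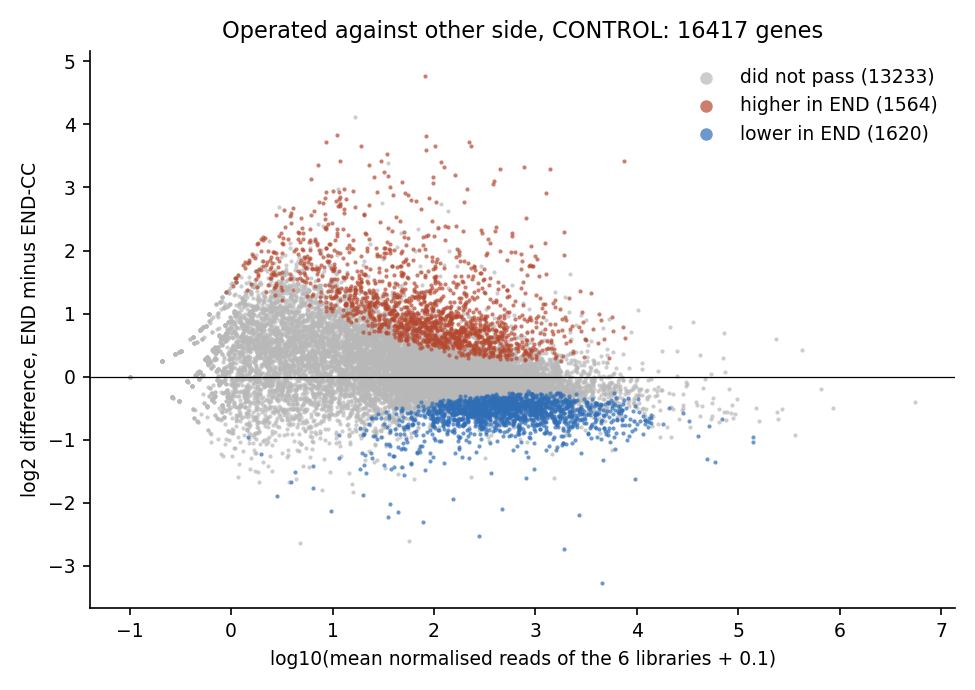
Log2 difference between END and END-CC in CONTROL (y axis, from the limma fit on log2 of normalised reads plus 1) against the mean of the 6 libraries (x axis, log10), with 1 point for each of 16417 genes. The 1564 higher genes (red) spread further from 0 and lie further to the left than the 1620 lower genes (blue).

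The balance of directions held for the authors' scaling, which sets a typical gene level between libraries, and for TMM scaling (1586 higher and 1677 lower). On recovered reads edgeR (1345 and 1829) and DESeq2 (1530 and 1847) leaned further to lower genes. Scaled instead to the total of each library, 3235 genes were higher and 301 lower. Higher genes were then 91.5% of the calls against 49.1% by the authors' scaling, because the median difference of all genes shifted by 0.286 on the log2 scale. Directions below are relative to the authors' scaling. With 1 animal fewer, 449 genes were higher and 303 lower without 2901, 708 and 606 without 2902, and 465 and 513 without 2903. A fit without the animal as block gave 841 and 755.

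The balance of called genes differed with the abundance of the transcript. Among abundant genes more were called lower than higher on the operated side, and among genes of 1 to 100 normalised reads more were called higher, while most genes of each band did not pass. Among 124 genes with a mean above 10000 normalised reads over the 6 libraries, 27 were lower in END (21.8%) and 0 higher (1 by edgeR, 0 in limma without a mean-dependent prior), and their median log2 difference was −0.49. By animal that median was −0.51 in 2901, −0.30 in 2902 and −0.53 in 2903. Among 1390 genes from 1000 to 10000, 438 were lower (31.5%) and 84 higher (6.04%). From 100 to 1000 the numbers were 1004 lower and 635 higher of 6169 genes. From 10 to 100 the balance turned, with 143 lower and 649 higher of 4911 genes and a median of 0.23. From 1 to 10 it was 8 lower and 193 higher of 3120 genes, with a median of 0.47. Up to 1, no further rise was seen, with 3 of 703 genes called higher (0.427%) and 0 lower (0 by edgeR in either direction). The median of the 703 genes was 0.24 in the fit and 0 in animals 2901 and 2902. Differences this near the pseudocount of 1 are understated, so this band cannot decide whether the rise goes on. Scaled to the library total the order of the 5 bands from 1 upward was kept, with medians from 0.71 down to −0.18. The medians from 100 to 1000 (0.23) and from 1000 to 10000 (0.04) then lay above 0. The calls turned in both bands, to 1466 higher and 137 lower from 100 to 1000 and to 203 higher and 110 lower from 1000 to 10000.

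**Figure D2:**
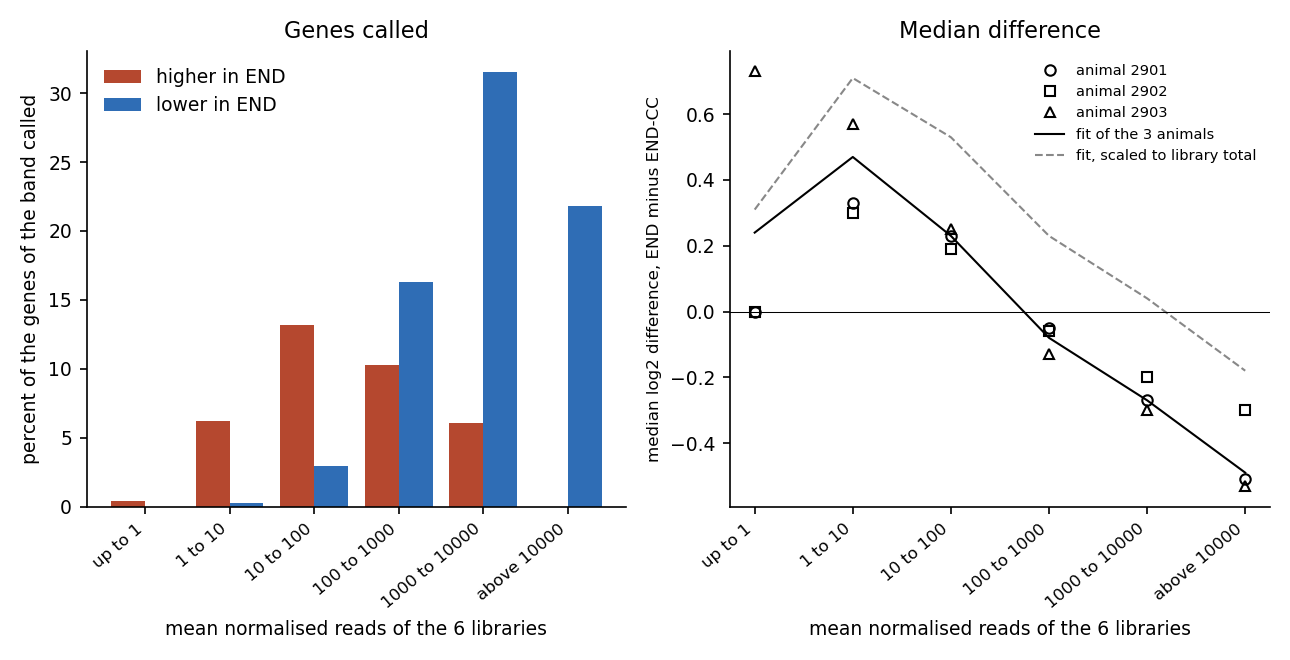
Left, percent of the genes in each band of mean normalised reads (6 libraries) that were higher (red) or lower (blue) in END than in END-CC of CONTROL. Right, median log2 difference per band in each of the 3 animals (symbols), in the fit (solid line) and in the fit scaled to the library total (dashed line). Both lines fall from the band of 1 to 10 to the band above 10000.

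Medians also lay lower for abundant genes in libraries that had no part in these values, by smaller amounts that were not tested against CONTROL. For the genes above 10000 the median side difference was −0.30 in N22W and −0.39 in N6W, and the median change from PRE to TR was −0.44 in CONTROL and −0.13 in N6W. For the genes from 1 to 10 these medians were 0.29, 0.31, 0.15 and 0.29. These are descriptions over genes, which are not independent replicates.

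As shares of the summed normalised reads, the 1564 higher genes made up 3.53, 2.86 and 3.14% of the END libraries and 1.40, 1.46 and 1.29% of the END-CC libraries. The 1620 lower genes made up 11.1, 10.5 and 11.7% in END and 15.0, 14.5 and 14.1% in END-CC. The 100 most abundant genes of END-CC held 68.6, 68.4 and 68.7% there and 63.6, 67.6 and 64.7% in END. They were chosen for their level in END-CC, which by itself favours a higher share there, and in animal 2902 the shares were close. A single gene, the most abundant in all libraries of the series, took 25.5, 31.8 and 29.8% of the END libraries and 31.7, 30.5 and 30.1% of the END-CC libraries. In normalised reads it lay at 4079000, 5643000 and 4806000 in END and at 6599000, 6106000 and 6296000 in END-CC. All 3 animals were lower on the operated side, yet its log2 difference of −0.40 did not pass (SE 1.76, adjusted p = 0.897). Without the mean-dependent prior, which assigns the few most abundant genes a wide spread, it did not pass either (SE 0.15, adjusted p = 0.0725).

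At the low end, 117 of the 25197 genes had reads in all 3 END libraries and in none of the 3 END-CC libraries. The reverse was seen in 7 of the 25197. The groups were of similar depth, with 53635273 reads in END and 58914599 in END-CC. Most of these genes were barely detected. The 117 genes had a median of 5 reads over the 3 END libraries and at most 46, and 1 of them reached 10 times the 3 reads that a count of 0 allows in a group. Since these genes were chosen by their reads in the same libraries, no count of calls is given for them.

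The 2 genes furthest higher and the 2 furthest lower in END than in END-CC are given with all their values. These are differences between the sides and not changes of the operated muscle over time. The rule took genes that passed the test and differed in the same direction in all 3 animals. A mean of at least 10 normalised reads on the higher side was also required. In all, 1420 higher and 1612 lower genes met the rule. ENSOARG00000017498 stood at 4.76, 6.14 and 0 normalised reads in END-CC and at 388.8, 45.6 and 44.8 in END. The groups did not overlap, and animal 2901 had by far the highest operated value. Its log2 difference was 4.77 (SE 0.88, adjusted p = 0.00141), the largest of all genes tested, and it was 6.08, 2.71 and 5.52 in the single animals. ENSOARG00000003232 was all but silent on the unoperated side, with 1.90, 0 and 0 normalised reads in END-CC against 36.1, 13.0 and 15.2 in END. Its log2 difference was 3.83 (SE 0.80, adjusted p = 0.00319), and the 3 animals were close to each other at 3.68, 3.81 and 4.02. In recovered reads these are 64 in END and 2 in END-CC. After scaling this is a ratio of 28.2 with an exact 95% interval of 7.49 to 238, for counting error only.

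ENSOARG00000005123 stood at 4115, 10850 and 9072 normalised reads in END-CC and at 925.8, 231.0 and 2108 in END. All 3 operated muscles lay below all 3 other sides, with the largest difference in animal 2902. Its log2 difference was −3.27 (SE 1.05, adjusted p = 0.0317), and the call was lost without any one animal (−3.83 and adjusted p = 0.0844 without 2901, −2.13 and 0.283 without 2902, −3.85 and 0.0693 without 2903), in edgeR (adjusted p = 0.0507), without the animal as block (0.0571) and without the mean-dependent prior (0.0537). ENSOARG00000020383 stood at 4680, 2633 and 2576 in END-CC and at 517.1, 271.2 and 770.3 in END. The groups were again apart, and its log2 difference of −2.73 (SE 0.47, adjusted p = 0.00102) was −3.18, −3.27 and −1.74 in the single animals.

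**Figure D3:**
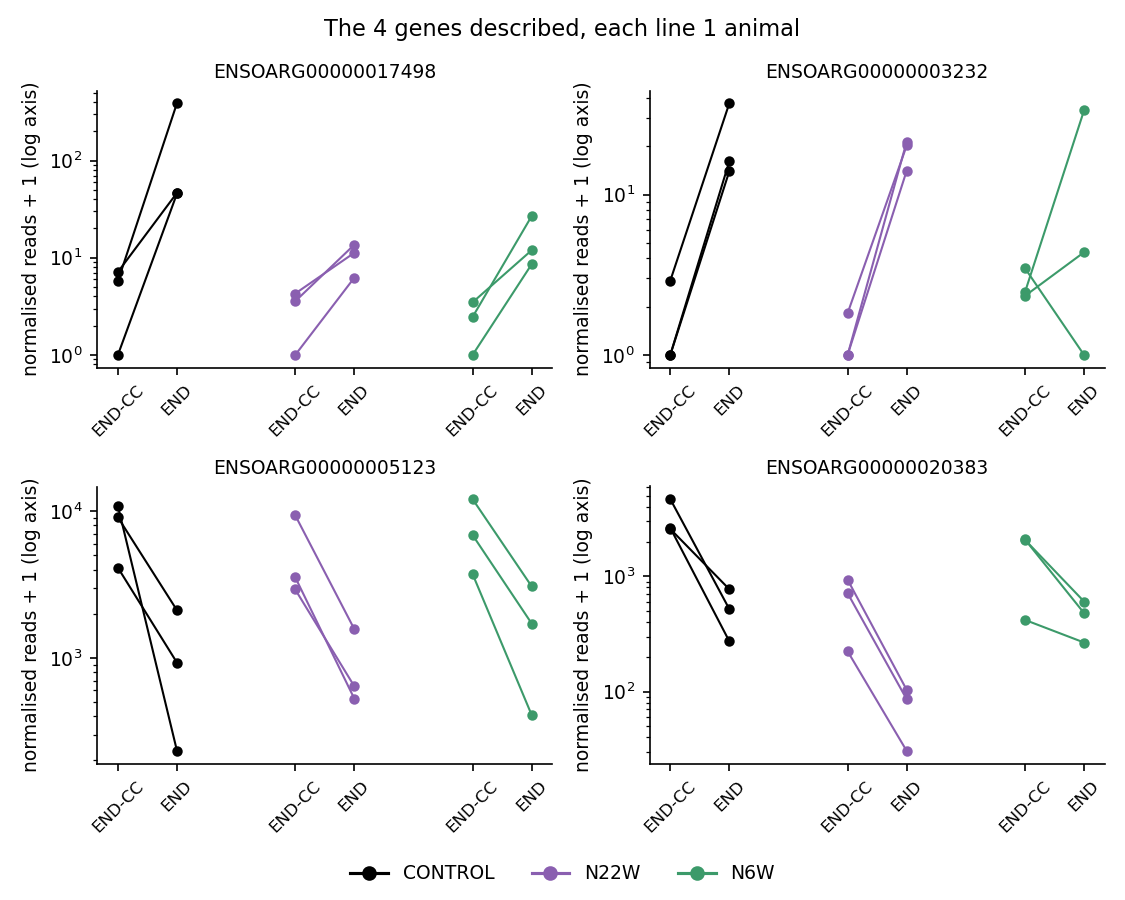
Normalised reads plus 1 (log axis) of the 4 genes in the END-CC and END libraries of each arm, with 1 line per animal. In CONTROL (black) all lines of the upper genes rise and all lines of the lower genes fall, and 1 N6W animal has a falling line for ENSOARG00000003232.

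These 4 genes differed in how they had behaved over release. ENSOARG00000003232 had risen from PRE to TR in CONTROL (log2 change 3.69, SE 0.80, adjusted p = 0.00652), from 0, 0 and 1.23 to 33.1, 8.65 and 13.6 normalised reads, and in N6W (2.73, adjusted p = 0.0407). Few or no reads of it were thus present before release. ENSOARG00000017498 had risen in CONTROL as well (2.73, SE 0.88, adjusted p = 0.046), from 5.67 ± 3.79 to 41.0 ± 15.6 (SD, n = 3), and had a log2 change of 1.88 in N6W that did not pass (adjusted p = 0.188). ENSOARG00000005123 had a log2 change of −1.42 in CONTROL (SE 1.05, adjusted p = 0.411) and −0.67 in N6W, neither past the threshold. ENSOARG00000020383 had one of −0.07 in CONTROL (SE 0.47, adjusted p = 0.945) and 0.13 in N6W (adjusted p = 0.901).

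ENSOARG00000020383, which differed between the sides in CONTROL but not detectably over release in CONTROL or N6W, is given at each time point. In CONTROL it measured 473 ± 50.3 at PRE, 517 ± 277 at TR, 520 ± 250 at END and 3300 ± 1200 at END-CC (SD, n = 3 each). PRE and TR of this arm were scaled apart from END and END-CC, so these levels are set side by side without a test. In N6W, where the 4 time points were scaled together, it measured 213 ± 163, 191 ± 34.2, 449 ± 171 and 1530 ± 960. In N22W it measured 879 ± 301 at PRE and 135 ± 68.4 at TR, which were scaled together. There TR (93.74 to 213.7) lay below PRE (561.6 to 1161) without overlap. END and END-CC of N22W, again scaled apart from these, measured 72.1 ± 37.9 and 623 ± 364. The difference between its side difference and its release change in CONTROL was −2.66 (log2, SE 0.67) and did not pass (adjusted p = 0.164).

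The 3 animals resembled each other in part. Side differences of pairs of CONTROL animals correlated with a Pearson r of 0.41 to 0.47 over the 16417 genes, a description of points that share library and depth. Between a CONTROL and a treated animal r was 0.21 to 0.42 for N22W and 0.16 to 0.51 for N6W, so the ranges overlapped. Among 12594 genes with a mean of at least 10 normalised reads, 988, 758 and 1262 were at least 2-fold higher in END in animals 2901, 2902 and 2903, and 410, 214 and 196 were at least 2-fold lower. Genes called without an animal were then read in that animal, whose own libraries had not chosen them. Of 449 genes called higher without 2901, 435 (96.9%) were higher in 2901, with a median log2 difference of 0.90 against 1.37 in the animals that chose them. Of 708 called higher without 2902, 672 (94.9%) were higher in 2902 (median 0.82 against 1.33). Of 465 called higher without 2903, 450 (96.8%) were higher in 2903 (1.05 against 1.34). For lower genes the shares were 97.0% of 303, 98.7% of 606 and 99.0% of 513, with medians of −0.60, −0.49 and −0.55. Among all genes 50.3 to 52.7% were higher and 45.3 to 47.8% lower in END in a single animal.

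The treated arms showed side differences of the same direction, with fewer genes past the threshold. END differed from END-CC in 263 genes in N22W (1.6%), 135 higher (0.822%) and 128 lower (0.78%). In N6W it differed in 677 genes (4.12%), 418 higher (2.55%) and 259 lower (1.58%), and in CONTROL in 3184 (19.4%). The number in N6W rested on animal 2909, since 2 genes were called without it and 1213 without 2908. In N22W 0 genes were called without 2914 (1863 at an unadjusted p under 0.05) and 1 without 2915. Of the 1564 genes higher in CONTROL, 93.6% were higher in N22W and 95.1% in N6W, against 55.0 and 52.5% of all genes. Of the 1620 lower genes, 98.6 and 97.8% were lower, against 44.9 and 47.3% of all genes. Their median log2 differences were 0.43 and −0.33 in N22W and 0.55 and −0.36 in N6W. No gene called in CONTROL was called in the opposite direction in either arm. Genes called in both were 96 higher and 108 lower in N22W, which is 71.1 and 84.4% of the N22W lists and 6.14 and 6.67% of the CONTROL lists. With N6W they were 289 higher and 197 lower, 69.1 and 76.1% of the N6W lists and 18.5 and 12.2% of the CONTROL lists.

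Fewer calls do not show a smaller difference, so the difference itself was tested. Limma called 0 genes whose side difference differed between N22W and CONTROL (753 at an unadjusted p under 0.05, 4.59% of those tested), 0 between N6W and CONTROL (672, 4.09%) and 0 between the 6 treated animals and CONTROL (754, 4.59%). edgeR called 0 in each, and DESeq2 called 2, 0 and 0. The genes called without a CONTROL animal were also read in that animal and in the treated ones. The treated libraries helped to set the spread per gene in these fits, while the left-out animal had no part. The footing was therefore not fully even. The lists share CONTROL animals, so they are not separate observations. In the list without 2901 the higher genes had a median of 0.90 in 2901, of 0.29, 0.67 and 0.59 in N22W animals 2913, 2914 and 2915, and of 0.67, 0.32 and 1.09 in N6W animals 2907, 2908 and 2909. Without 2902 it was 0.82 in 2902 against 0.37, 0.66 and 0.52 in N22W and 0.58, 0.30 and 1.06 in N6W. Without 2903 it was 1.05 in 2903 against 0.35, 0.66 and 0.61 and 0.64, 0.34 and 1.15. In each list the left-out CONTROL animal lay above 5 of the 6 treated animals and below 2909.

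**Figure D4:**
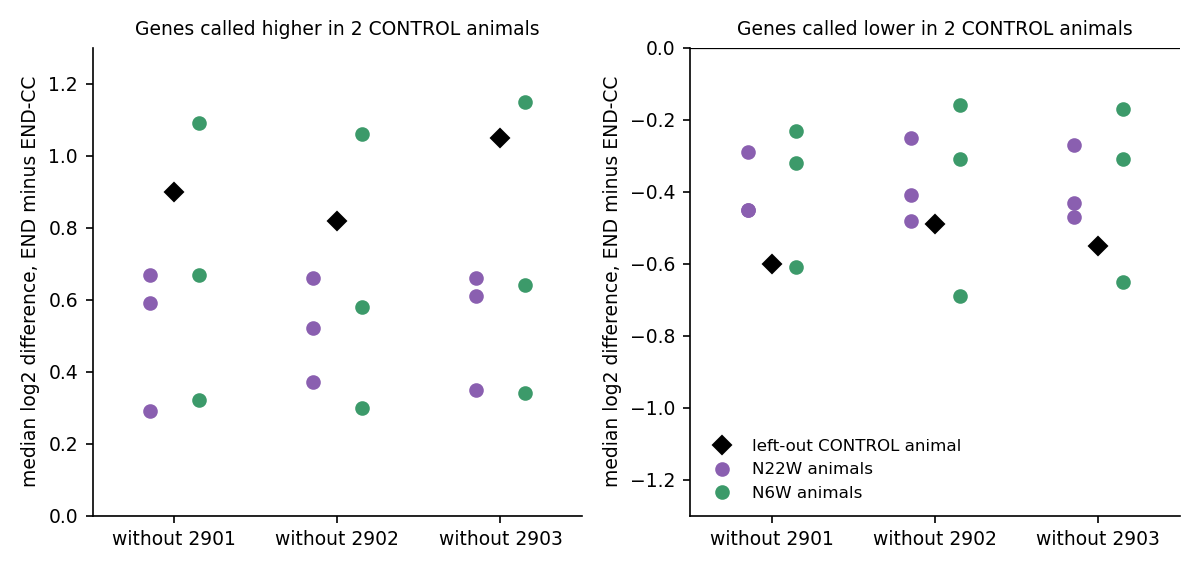
Median log2 side difference (y axis) of genes called higher (left) or lower (right) in a fit without the CONTROL animal named on the x axis, in that animal (black), in N22W animals (purple) and in N6W animals (green). For the higher genes the black point lies above 5 of 6 coloured points in each column.

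The 4 genes above were chosen for their difference in CONTROL, which by itself favours smaller differences elsewhere. ENSOARG00000017498 had operated values of 12.6, 10.3 and 5.24 normalised reads in N22W and of 7.58, 10.9 and 25.8 in N6W, against 388.8, 45.6 and 44.8 in CONTROL. The difference of its side difference from CONTROL was −2.39 over the treated animals (log2, SE 1.07, adjusted p = 0.985). ENSOARG00000003232 was higher in END in N22W too (3.90, SE 0.80, adjusted p = 0.0237). In N6W it reached 32.5 normalised reads in 2909 but lay at 3.37 in 2907 and 0 in 2908 (log2 difference 0.96, adjusted p = 0.478). ENSOARG00000020383 was lower in END in N22W (−3.04, SE 0.47, adjusted p = 0.0066) and had a log2 difference of −1.52 in N6W (SE 0.47, adjusted p = 0.064). ENSOARG00000005123 had −2.51 and −2.39 in N22W and N6W, which did not pass (adjusted p = 0.191 and 0.162), although it was lower in END in all 6 animals.

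The side difference after repair resembled the change over release. No library is shared between the 2 comparisons, although the CONTROL animals are the same. Of the 1564 genes higher in END, 83.0% stood higher at TR than at PRE in CONTROL (44.6% of all genes) and 84.5% in N6W (53.4%), with medians of 0.39 and 0.42. Of the 1620 lower genes, 96.4% were lower at TR in CONTROL (55.4% of all genes) and 88.7% in N6W (46.5%), with medians of −0.39 and −0.27. Counted over both directions, the share in single N6W animals was 54.2% in 2907, 80.5% in 2908 and 92.8% in 2909. Genes called in both comparisons of CONTROL were 329 upward, which is 21.0% of the side list and 47.6% of the 691 release genes (4.21% of those tested), and 583 downward, which is 36% of the side list and 50.6% of the 1152 release genes (7.02%). Over release 1843 genes were called in all (11.2%), and 7 of the genes called in both comparisons went in opposite directions. Both lists come from 1 fit with a shared spread per gene, which by itself can raise their overlap.

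To set the sizes side by side, genes were chosen on the release of N6W animals, a contrast that shares no library with either comparison. There 1146 genes changed (6.98%), of which 618 rose (3.76%) and 528 fell (3.22%). That contrast comes from the same fit, whose spread per gene rests on all 36 libraries. This by itself can raise the shares called below. A choice made on a release may also favour the release change over the side difference. In CONTROL the 618 genes had a median log2 change of 0.49 over release and a median side difference of 0.60 after repair. By animal the medians were 0.56, 0.54 and 0.38 over release and 0.57, 0.53 and 0.61 between the sides. The 528 genes had medians of −0.48 and −0.40, by animal −0.50, −0.56 and −0.33 over release and −0.42, −0.33 and −0.41 between the sides. The 2 quantities thus overlapped over the animals in both lists. Of the 618 genes 277 (44.8%) were called higher in END than in END-CC, against 9.53% of all genes tested, and 2 were called lower. Of the 528 genes 242 (45.8%) were called lower, against 9.87%, and 14 were called higher.

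**Figure D5:**
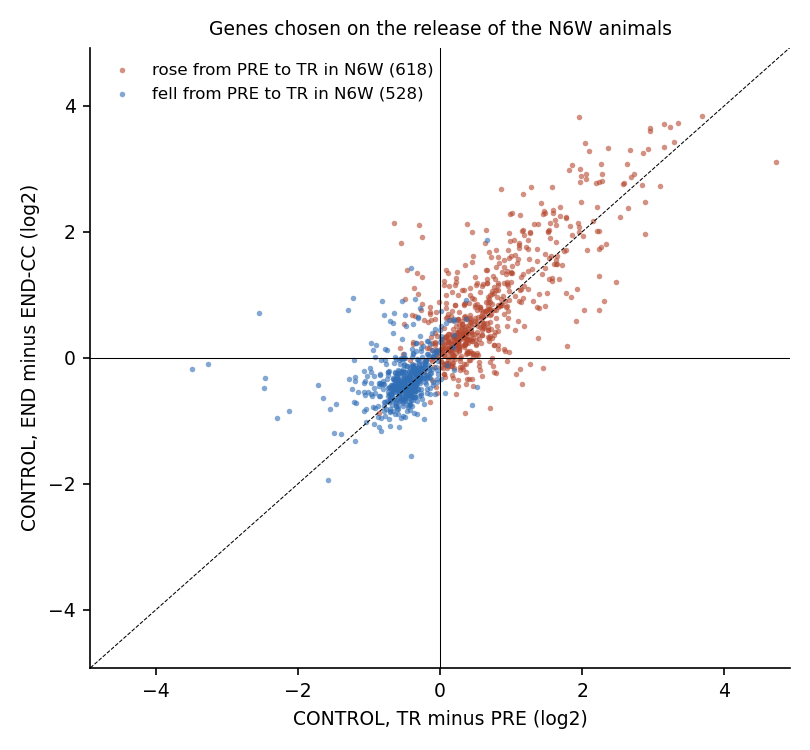
Side difference after repair (y axis, log2) against the change over release (x axis, log2) in CONTROL, for the 618 genes that rose (red) and the 528 that fell (blue) from PRE to TR in N6W. The dashed line marks equal values, and 87.2% of the red and 86.6% of the blue genes keep their sign on the y axis.

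The side difference and the release change of CONTROL were also tested against each other, a comparison added after the data had been examined. Limma called 9 genes (0.0548%), all with a higher side difference, and 1610 genes had an unadjusted p under 0.05 (9.81%). These 9 genes stood lower at TR than at PRE, with log2 changes of −2.67 to −0.81, and had side differences of 0.18 to 2.3. The same libraries chose them for a high side difference against the release change, which by itself favours these signs. No count of calls is therefore given for them. The count was 0 without animal 2901, 0 without 2903, 4 without 2902 and 0 without the block. edgeR called 2 genes and DESeq2 47.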

How the data were processed

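RNA of the infraspinatus was sequenced from stranded total RNA libraries after ribosomal depletion with probes for human RNA, per the labels' protocols. Each deposited file gives the authors' signal of 1 library for 25197 Ensembl genes. Per the submitters' processing notes, Oar_v3.1, R 3.0.2 and STAR 2.3.0e were used, without their roles. Neither the counter nor how the scaling was set is given in the sources used here. Values of a library are whole multiples of 1 step, written with at most 4 significant digits. Divided by that step, 100.0% of the low values (100 reads or fewer) came within 0.1 of a whole number, and they were taken as reads over a size factor. Recovered reads ran from 11879736 to 43065773 over the 36 libraries. Size factors averaged 0.999 (geometric mean) in the 12 libraries taken at PRE and TR from CONTROL and N22W and of 1.0 in the other 24, and 529 genes lay over 8-fold higher in each of the 12 than in all the others (values under 1 set to 1, 0 genes the other way). END and END-CC of all arms lie together in the 24, so levels of the 2 sets were set side by side and not tested. What made the 2 sets differ was not tested either.

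Genes entered the test if their median over all 36 libraries was 0.5 or more, which left 16417. Log2(value + 1) was fitted in limma 3.58.1 (R 4.3.3), whose prior followed the mean level, with a mean per arm and time point and the animal as block. P values are two-sided, Benjamini-Hochberg adjusted across these genes, with 0.05 as the threshold. Fold changes on this scale are understated for genes near the pseudocount of 1. Numbers expected at equal depth are hypergeometric expectations. The animal number pairs the libraries, since both come from the same animal. Deviations from the group mean correlated with r = 0.52, 0.38 and 0.51 within animals (12594 genes). Pairs of libraries of a group had a chi-square per gene of 22.37 to 84.55, where copies would lie near 1.

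Alternatives were edgeR 4.0.16 and DESeq2 1.42.0 on recovered reads, other scalings, pseudocounts, filters and library sets, and leaving out animals. Library-total scaling, limma without the mean-dependent prior, the alternatives for the counts of the treated arms and the contrast of side and release were added after seeing the data. Named genes are the 2 highest and 2 lowest by log2 difference under the rule in the text. Of 25197 identifiers 0 matched a name, so the planned gene lists and markers were not used. Comparisons and lists were chosen with earlier results of these data known. The limma and edgeR fits were also run on counts simulated from group means without an animal effect, unlike the paired data. The outcome is not given here.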

Additional observations from a re-analysis of the deposited data

How the results depend on the processing

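Without the animal as block, 841 genes were higher and 755 lower in END of CONTROL, and 38 genes in N22W and 116 in N6W differed between the sides. All 841 and 755 genes were among those called with the block. With 1 animal left out, the counts in CONTROL ran from 449 to 708 higher and from 303 to 606 lower. Those of either direction ran from 0 to 153 in N22W and from 2 to 1213 in N6W. Scaled to the library total, a choice made after seeing the data, 3235 genes were higher and 301 lower in CONTROL and 160 differed in N22W, and the median difference turned to 0.23 for genes of 100 to 1000 and to 0.04 for genes of 1000 to 10000 normalised reads. Limma without the mean-dependent prior, also added later, called 61 genes in N22W and 272 in N6W. DESeq2 called 714 and 1235 there, and 2 genes for N22W against CONTROL. The 9 genes with a side difference apart from the release change were 4 with no filter on low values, 3 with TMM scaling, 3 scaled to the library total, 2 in edgeR, 47 in DESeq2, 0 without the block and 0 to 4 with 1 CONTROL animal left out. The causes of these shifts were not tested.

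The counts of CONTROL stayed within 1.5 times under the other 9 alternatives run. With only its 6 libraries in the fit, 1754 genes were higher and 1958 lower, of which 1304 and 1450 were shared with the fit on all libraries. edgeR called 1345 and 1829, sharing 1309 and 1602. ENSOARG00000017498 and ENSOARG00000020383 kept their call under all 14 alternatives and ENSOARG00000003232 under the 13 that could be run for it. ENSOARG00000005123 lost it under 6 of 14, named above. The shares of CONTROL genes with the same sign elsewhere moved by less than their SD over animals under the 5 alternatives run. Depth limits the 117 genes at 0 on the unoperated side, which had a median of 5 reads.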

Other observations

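The operated muscles were hardly more alike or unlike each other than the unoperated ones. Among the 12594 genes with a mean of at least 10 normalised reads, the SD of log2 values over the 3 animals had a median of 0.21 in END and 0.20 in END-CC, and 6535 genes had the larger SD in END.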
